A study of Mus musculus with 6 samples.

Results

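The genes that load and display peptides on major histocompatibility complex (MHC) molecules were compared between Lgr5-positive and Lgr5-negative mammary cells. Members were chosen by name: every gene on the array whose symbol begins with H2-, the mouse MHC, and a fixed set of partners (B2m, Cd74, Ciita, Nlrc5, Rfx5, Tap1, Tap2, Tapbp, Tapbpl, Psmb8 to Psmb10, Psme1, Psme2, Erap1, Calr, Pdia3, Ctss and Cd1d1). This gave 53 of the 20887 named genes, read by 66 probes. They comprise 38 class I genes (24 heavy chains and 14 pathway genes), 13 class II genes, the lipid-presenting molecule Cd1d1, and H2-Ke6, which carries an H2- symbol but is not an antigen presentation gene. Genes were tested if Cy5 signal stood clear of background on 3 arrays or more of the 6, which held for 46 members among 15675 genes.

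MHC class I molecules consist of a heavy chain and the light chain beta-2-microglobulin (B2m). They display peptides that the proteasome cuts from proteins of the cell itself and that the transporter Tap1-Tap2 carries into the endoplasmic reticulum, and most nucleated cells, mammary epithelium included, express them. Class II molecules hold an alpha and a beta chain, are escorted by the invariant chain Cd74 and are loaded in endosomes; they are typical of B cells, dendritic cells and macrophages, and interferon-gamma can induce them in epithelial and endothelial cells through the transactivator Ciita, as it raises class I genes, largely through Nlrc5.

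Both fractions came from virgin C57/B6 mice of genotype lgr5-egfp-ires-creert2, in which EGFP and a tamoxifen-inducible Cre are expressed from the Lgr5 locus. They lay in the same sort gate, negative for lineage markers, positive for CD24 and high for CD29 (called P4), a gate enriched in basal cells; EGFP then divided it into Lgr5-positive and Lgr5-negative cells, with 3 samples each. The labels used here give no age and do not say how many mice made up a sample or whether samples came from separate mice, so p-values measure the spread between these samples. Each sample was labelled with Cy5 and hybridised beside a Cy3-labelled universal reference, RNA from a mix of 11 mouse cell lines, and no dyes were swapped. Values below are log2 ratios of sample to reference, and differences are Lgr5-positive minus Lgr5-negative.

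Arrays that share a replicate number deviated together from their group means and are treated as pairs. Each difference was tested with limma, adjusted over all genes tested, with the group as the only term and again with the replicate number as a block. Same-numbered arrays were neighbours on 1 slide, so within a pair the place on the slide cannot be told apart from the group. The median Cy5 signal of an array was 137 to 169 for Lgr5-positive and 200 to 278 for Lgr5-negative samples, against a background of 64 to 76. Lgr5 itself was 1.47 higher in Lgr5-positive cells (SE 0.40, adjusted p = 0.244 unblocked and 0.0021 with the replicate block). The mean log2 ratio over the 9 basal mammary markers was 2.33 to 2.99 on the 6 arrays, above the reference RNA. Of these, Itgb1 lay below it (group means -0.24 in Lgr5-positive and -0.40 in Lgr5-negative cells) and Trp63 near it (0.06 and -0.0029). The rest lay above it in both groups.

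The promoters of 40 of the 53 members were found in the RefSeq table of build GRCm38.p6. Classical class I promoters hold a module in which a kappaB site and an interferon-stimulated response element (ISRE) lie before an SXY module, whose X2 box binds CREB/ATF proteins and whose Y box holds an inverted CCAAT. The first sequences shown are those of heavy chains H2-K1, H2-D1 and H2-Q7, whose log2 ratio was lower in Lgr5-positive cells, and of H2-Q4, whose groups overlapped. They lie at chr17:34000334-34000468 (minus strand), chr17:35262913-35263055 (plus strand), chr17:35439012-35439153 (plus strand) and chr17:35379434-35379576 (plus strand), all before the start of transcription. Capitals mark matches on either strand to kappaB (GGG and TTCCC with any 2 bases between them), to TGACG (the letters of the X2 box core) and to CCAAT (inverted in the Y box).
H2-K1: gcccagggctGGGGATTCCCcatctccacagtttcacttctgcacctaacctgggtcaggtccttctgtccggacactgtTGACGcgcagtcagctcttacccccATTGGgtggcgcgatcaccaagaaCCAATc
H2-D1: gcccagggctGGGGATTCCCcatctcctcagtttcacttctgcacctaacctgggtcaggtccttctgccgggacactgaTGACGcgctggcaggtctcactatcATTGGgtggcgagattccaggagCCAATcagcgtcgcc
H2-Q7: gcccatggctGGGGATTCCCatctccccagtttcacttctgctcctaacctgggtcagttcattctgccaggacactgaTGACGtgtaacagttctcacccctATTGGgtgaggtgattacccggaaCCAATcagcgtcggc
H2-Q4: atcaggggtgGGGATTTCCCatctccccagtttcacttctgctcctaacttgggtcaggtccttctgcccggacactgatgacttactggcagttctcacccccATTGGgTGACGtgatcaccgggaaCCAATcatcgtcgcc

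All 4 windows hold a kappaB match, a TGACG match and a pair of CCAAT matches, of which the upstream CCAAT reads as ATTGG, and none of these matches overlap. In H2-K1, H2-D1 and H2-Q7 the TGACG match starts 55, 101 and 64 bases upstream of the start and precedes both CCAAT matches. In H2-Q4 it starts 73 bases upstream and lies between them, after the inverted CCAAT, so it is not at the place of the X2 box. The kappaB motif occurred within 250 bases upstream in 1.628% of the 27025 genes of that table, with the start that holds most matches taken for every gene alike, and in 6 of the 40 members (H2-K1, H2-D1, H2-Q4, H2-Q7, H2-Aa and H2-Oa). TGACG occurred in 19.19% of all genes' promoters and in 14 of the 40 members, 13 of them class I. CCAAT occurred in 36.91% of them, in 21 of the 29 class I members with a promoter and in 9 of the 10 class II members. A match is a string of letters and no evidence of binding.

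B2m and the heavy chain H2-T23 are shown because each holds a match to the ISRE core on either strand (TTTC, any 2 bases, TTTC). The windows are chr2:122147538-122147648 (plus strand) and chr17:36032739-36032835 (minus strand), with the ISRE, TGACG and CCAAT matches in capitals.
B2m: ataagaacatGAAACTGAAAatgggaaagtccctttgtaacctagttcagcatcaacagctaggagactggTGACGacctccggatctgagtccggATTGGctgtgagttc
H2-T23: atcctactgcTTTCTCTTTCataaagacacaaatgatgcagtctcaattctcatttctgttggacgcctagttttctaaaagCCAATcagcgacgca
The ISRE core starts 139 bases upstream in B2m and 124 bases upstream in H2-T23. It occurred in 3.312% of all genes' promoters and, among members, also in Ctss. The pattern is strict and does not count tttcacttct, which the windows of H2-K1, H2-D1, H2-Q7 and H2-Q4 hold after the kappaB match. The lack of a match is therefore no evidence that an ISRE is absent. The kappaB pattern is strict as well and does not count gggaaagtccc, which the B2m window holds after the ISRE match. Lack of a kappaB match is likewise no evidence that such a site is absent. No letters of the ISRE matches overlap with another motif.

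Antigen presentation genes mostly had lower log2 ratios in Lgr5-positive cells, and the medians were farther from 0 for class I than for class II. The median difference was -0.62 over the 33 class I genes tested, 1.54-fold lower, and -0.44 over the 11 class II genes tested, 1.35-fold lower, against 0.0099 over all genes. Class I heavy chains had a median of -1.04 and class I pathway genes of -0.45. With untested dim genes included, these medians were -0.38 for class I, -0.28 for its heavy chains, -0.43 for its pathway genes and -0.29 for class II. The difference between the classes was not tested. In sorted bulk samples, fewer cells of a type and less RNA per cell cannot be told apart.

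With the group alone, 1 member, the heavy chain pseudogene H2-Q5, fell, where 0.612% of all genes were called (92 or 0.587% lower and 4 or 0.0255% higher), and 21 of the 46 members (45.7%) had an unadjusted p under 0.05, against 1285 (8.2%) of all genes. With the block an unadjusted p under 0.05 was held by 26 of the 46 members (56.5%) and by 3346 (21.3%) of all genes tested, the shares beside which the unadjusted counts given for roles and lists are to be read. With the replicate block 14 members fell and 0 rose, which is 30.4% of those tested, where 7.72% of all genes were called, 5.61% lower and 2.11% higher. Counts of calls given below for roles and lists are to be read beside these shares. A count of 0 among a few genes lies close to them. Of the 14, 12 were class I genes (H2-K1, H2-K2, H2-Q5, H2-T10, H2-Q7, H2-Q10, H2-M3, B2m, Psmb8, Psmb9, Psmb10 and Nlrc5) and 2 belonged to class II (Cd74 and Ctss). The groups did not overlap, with each Lgr5-positive array below each Lgr5-negative one, in 24 of the 46 members (52.2%), where 8.14% of all genes did so. All 3 pairs were lower in 29 of the 46 members and higher in 4, where 21.8% and 22.5% of all genes were. The split of blocked calls over all genes, 880 lower and 330 higher, was 5662 and 128 under median centring and 535 and 91 under scaling between arrays.

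**Figure D1:**
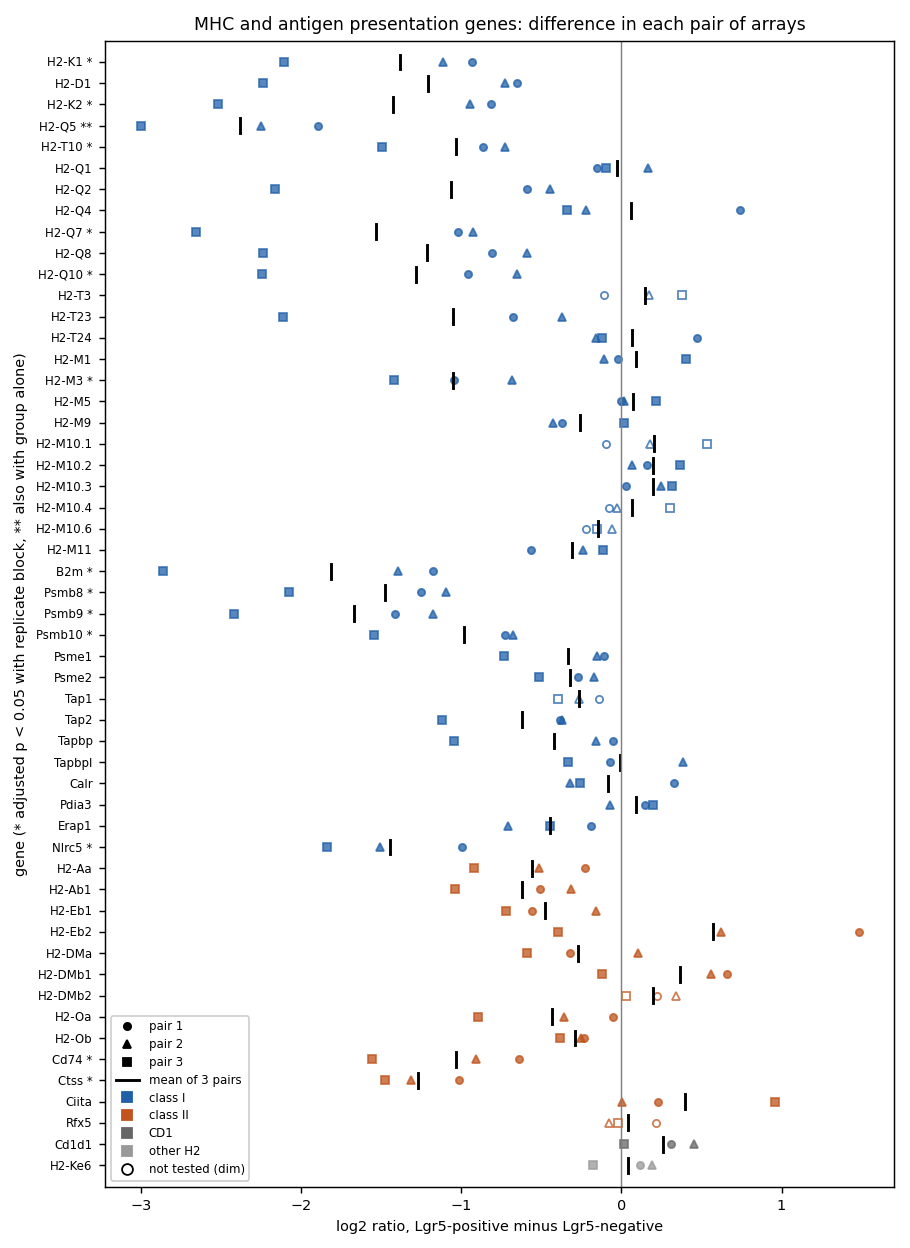
Difference in log2 ratio, Lgr5-positive minus Lgr5-negative, for each of the 53 members in each of the 3 pairs of same-numbered arrays (symbols), with the mean of the pairs as a black bar and untested dim genes as open symbols. The bars of the 14 genes marked with asterisks lie between -2.38 and -0.98, and pair 3 lies farthest to the left in all 14.

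Classical class I heavy chains, which present peptides to CD8 T cells, are H2-K1 and H2-D1 in this strain. H2-K1 had log2 ratios of 0.21, 0.47 and 0.46 in Lgr5-positive replicates 1 to 3 and of 1.14, 1.59 and 2.57 in Lgr5-negative replicates 1 to 3. The groups did not overlap, and Lgr5-negative replicate 3 stood above its group. The difference was -1.39 (SE 0.36), 2.61-fold lower, with an adjusted p of 0.224 in the unblocked fit and 0.0163 when blocked by replicate (SE 0.23); the other H2-K1 probe gave -1.15. H2-D1 had 0.16, 0.11 and -0.0018 in the Lgr5-positive arrays and 0.82, 0.84 and 2.24 in the Lgr5-negative ones. Here too the Lgr5-negative replicate 3 was far above the other arrays, and the groups did not overlap. Its difference of -1.21 (SE 0.39), 2.31-fold lower, passed neither fit (adjusted p = 0.370 and, with the block, 0.0638).

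H2-K2, H2-Q5 and H2-T10 are listed by RefSeq as transcribed pseudogenes of heavy chains, and all 3 fell with the replicate block. H2-Q5 showed the largest difference of any member, with 1.30, 1.53 and 0.49 in Lgr5-positive cells and 3.19, 3.78 and 3.49 in Lgr5-negative cells. Its means were 1.11 ± 0.55 and 3.49 ± 0.29 (SD, n = 3 each), with a wide gap between the groups. The difference was -2.38 (SE 0.31), 5.21-fold lower, with a limma adjusted p of 0.0364 with the group alone and 0.0021 with the block. The call with the group alone was lost without Lgr5-positive replicate 1 or 3 or Lgr5-negative replicate 2 or 3, with an adjusted p of 0.12 to 0.169 in each case.

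H2-K2 had -0.61, -0.62 and -0.75 in Lgr5-positive cells and 0.21, 0.33 and 1.78 in Lgr5-negative cells. Positive arrays lay close together, and Lgr5-negative replicate 3 was the highest array by more than 1 log2 unit. The difference was -1.43 (SE 0.41; adjusted p = 0.295 with the group alone, 0.0446 with the block), and -1.36 on the other probe. H2-T10 had -0.64, -0.12 and -0.997 against 0.23, 0.61 and 0.50, with no overlap and no single array apart. Its difference was -1.03 (SE 0.26; adjusted p = 0.203 and, with the block, 0.0167).

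Nonclassical heavy chains of the H2-Q, H2-T and H2-M regions have restricted peptides or receptors; H2-Q7 encodes a Qa-2 antigen, H2-T23 the NK-receptor ligand Qa-1, and H2-M3 presents formylated peptides. H2-Q7 had 0.04, 0.29 and -0.12 in Lgr5-positive cells and 1.07, 1.22 and 2.54 in Lgr5-negative cells, again with replicate 3 high among the negatives. It fell with the block, by 1.54 on the log2 scale (SE 0.40; adjusted p = 0.222 with the group alone and 0.0380 with the block). H2-Q10 had 0.36, 0.76 and -0.30 against 1.32, 1.42 and 1.95, and H2-M3 had -0.68, -0.24 and -0.69 against 0.37, 0.45 and 0.73. Neither gene's groups overlapped. H2-Q10 differed by -1.29 (SE 0.32; adjusted p = 0.194 and, with the block, 0.0449) and H2-M3 by -1.05 (SE 0.20; adjusted p = 0.102 and, with the block, 0.0128). A dimmer H2-Q10 probe that was not tested gave -0.51.

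The 20 heavy chains tested divided into a set at least 2-fold lower and a set near 0, a description of the reported values, made after they were seen, that depended on single arrays. The former held 11 genes, from 2.04-fold to 5.21-fold lower: H2-K1, H2-D1, H2-K2, H2-Q5, H2-T10, H2-Q2, H2-Q7, H2-Q8, H2-Q10, H2-T23 and H2-M3. In all 11 the groups did not overlap and the probe was well above background on all 6 arrays; 7 fell with the block. Over all genes tested, 4% were at least 2-fold lower. The other 9 (H2-Q1, H2-Q4, H2-T24, H2-M1, H2-M5, H2-M9, H2-M10.2, H2-M10.3 and H2-M11) lay between -0.31 and 0.20, none with a call in either limma fit or an unadjusted p under 0.05 in either, and 6 of them were well above background on all 6 arrays. Among these 9, Cy5 signal net of background was 70.5 to 364 for H2-Q1, 56 to 263 for H2-T24 and 124.5 to 383 for H2-M10.3. It was 4265 to 35735.8 for H2-Q4. In the lower set it was 15571.6 to 129646 for H2-K1 and 154 to 965 for H2-T10. Dim signal limits what a value near 0 can show. Without Lgr5-negative replicate 3, only 4 heavy chains (H2-Q5, H2-Q7, H2-Q10 and H2-T10) were at least 2-fold lower. Without Lgr5-positive replicate 3 there were 7, 6 of the 11 and H2-M11 at -1.08, and with array weights there were 7 of the 11. In other sets of values the 9 genes near 0 lay between -0.90 and 0.45: H2-M9 was at -0.90 in the deposited value table and the scanner ratios, and under median centring H2-M11 was at -0.53 and H2-Q4 at -0.40.

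Several heavy chain genes, among them those of the H2-K, H2-D and H2-Q regions, are close copies of each other, and probe sequences were not used here, so signal shared between their probes cannot be told apart from parallel change. H2-Q2, H2-Q8 and H2-T23 had almost the same values on each array. In Lgr5-positive replicates 1 to 3 they were 0.31, 0.52 and -0.19 for H2-Q2, 0.31, 0.52 and -0.15 for H2-Q8, and 0.32, 0.61 and -0.12 for H2-T23. Their differences were -1.07, -1.21 and -1.06, with adjusted p of 0.108, 0.0631 and 0.105 with the block. The second H2-K1 probe, which gave -1.15, read close to these genes, with 0.36, 0.56 and -0.11 on the same Lgr5-positive arrays. Counts of heavy chains and of their probes are therefore not counts of independent measurements.

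Among the 9 heavy chains near 0, H2-M10.2 and H2-M10.3 were higher in all 3 pairs, with no overlap between groups, by 0.20 each (adjusted p = 0.425 and 0.423 with the block), where 4.06% of all genes did not overlap in that direction. Both turned sign in 1 other set of values, and a dim H2-M10.3 probe gave -0.30. H2-Q4 varied by replicate number: it had 0.65, -2.36 and 0.78 in Lgr5-positive cells and -0.10, -2.14 and 1.12 in Lgr5-negative cells. Replicate 2 was low in both fractions, and the difference was 0.06 (SE 1.08). H2-M11 in turn was high in replicate 3 of both fractions (2.70 and 2.82), with a difference of -0.31 (SE 0.81). The 4 heavy chains too dim to test, H2-T3, H2-M10.1, H2-M10.4 and H2-M10.6, differed by -0.15 to 0.21.

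B2m, the light chain shared by all class I molecules, had -1.48, -1.09 and -1.73 in Lgr5-positive cells and -0.30, 0.30 and 1.13 in Lgr5-negative cells. The groups did not overlap, and pair 3 again differed most. The difference was -1.81 (SE 0.38), 3.51-fold lower, the largest among pathway genes (adjusted p = 0.123 with the group alone and 0.0184 with the block).

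The immunoproteasome replaces catalytic subunits of the standard proteasome with Psmb8, Psmb9 and Psmb10, and all 3 fell with the block. Psmb8 had -0.74, -0.73 and -1.73 in Lgr5-positive cells and 0.51, 0.37 and 0.35 in Lgr5-negative cells. Psmb9 had -0.68, -0.79 and -1.69 against 0.74, 0.39 and 0.73, and Psmb10 had 0.20, -0.15 and -0.71 against 0.93, 0.53 and 0.83. In each, no arrays overlapped between groups, and it was Lgr5-positive replicate 3 that was lowest, not Lgr5-negative replicate 3 that was high. The differences were -1.48 (SE 0.30; adjusted p = 0.113 and, with the block, 0.0082) for Psmb8, -1.67 (SE 0.30; 0.081 and 0.0092) for Psmb9 and -0.98 (SE 0.27; 0.253 and 0.0280) for Psmb10. The proteasome activator subunits Psme1 and Psme2 differed by -0.33 and -0.32 and passed neither fit. Of 16 genes of the constitutive proteasome, 0 passed either limma fit, with a median of -0.03. Over all genes 0.612% passed with the group alone and 7.72% with the block, so a count of 0 among 16 is close to these shares. At an unadjusted p under 0.05 there were 0 with the group alone and 1 with the block.

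None of the 6 tested genes of peptide transport, loading and trimming passed either limma fit, a count close to the share of all genes (7.72% with the block). At an unadjusted p under 0.05 there were 1 with the group alone and 2 with the block. Tap1 was too dim to test, being well above background on 1 array of each group; it read -1.12, -1.18 and -1.42 in Lgr5-positive cells and -0.97, -0.92 and -1.02 in Lgr5-negative cells, without overlap, and its difference was -0.27. Tap2, its partner, differed by -0.62 (adjusted p = 0.0916 with the block) and the trimming peptidase Erap1 by -0.45 (0.119 with the block). Erap1 was dim, well above background on 1 Lgr5-positive and 2 Lgr5-negative arrays. The loading chaperone Tapbp differed by -0.42, its relative Tapbpl by -0.0082, and the folding factors Calr and Pdia3 by -0.08 and 0.09. None of the 9 other endoplasmic reticulum folding and loading partners passed either fit (median -0.07; 1 in each fit at an unadjusted p under 0.05).

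Nlrc5, the transactivator of class I genes, had -1.61, -0.74 and -0.28 in Lgr5-positive cells and -0.62, 0.77 and 1.56 in Lgr5-negative cells. The groups overlapped, and both fractions were lowest in replicate 1 and highest in replicate 3, while within pairs the difference was -0.99, -1.51 and -1.84. The mean difference was -1.45, with an SE of 0.59 and an adjusted p of 0.573 with the group alone, and an SE of 0.18 and an adjusted p of 0.0052 with the block. The other Nlrc5 probe, well above background on all 6 arrays, gave 0.06, so the 2 probes of the gene disagree.

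**Figure D2:**
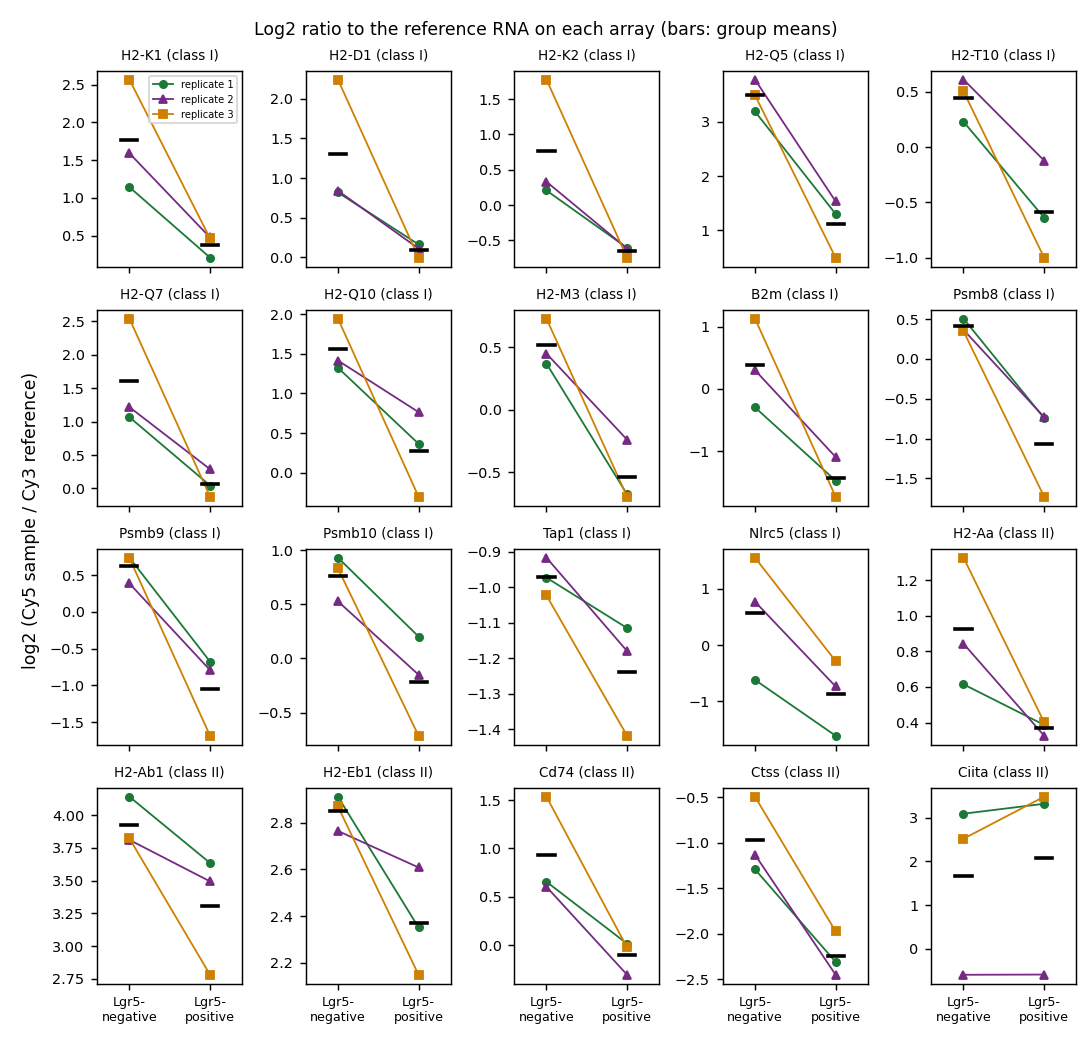
Log2 ratio of sample to reference on each array for the 20 members described array by array; lines join arrays with the same replicate number, bars are group means (n = 3), and each panel has its own vertical scale. All 3 lines fall toward Lgr5-positive cells in every panel but that of Ciita, and in Nlrc5 and Ciita the replicates are far apart in both fractions.

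Class II alpha and beta chains were lower in Lgr5-positive cells for 3 of the 4 genes measured, by 0.48 to 0.62 on the log2 scale in the reported values. None passed either limma fit, with 2 at an unadjusted p under 0.05 with the group alone and 3 with the block. H2-Aa had 0.39, 0.33 and 0.40 in Lgr5-positive cells and 0.61, 0.84 and 1.33 in Lgr5-negative cells. It was well above background on 1 of the 3 Lgr5-positive arrays, and the groups did not overlap. H2-Ab1, which pairs with it, had 3.63, 3.49 and 2.78 against 4.14, 3.81 and 3.82, and H2-Eb1 had 2.35, 2.61 and 2.15 against 2.91, 2.76 and 2.87. In both the Lgr5-positive replicate 3 was the lowest array and no arrays overlapped between groups. The differences were -0.56 for H2-Aa (SE 0.22; adjusted p = 0.534 and, with the block, 0.0928), -0.62 for H2-Ab1 (SE 0.26; 0.615 and 0.0737) and -0.48 for H2-Eb1 (SE 0.18; 0.507 and 0.111). The other H2-Ab1 probe gave -0.71. These values depended on the processing: H2-Aa was at -1.31 in the deposited value table and in the scanner ratios (limma adjusted p with the block 0.0305 and 0.0308), and H2-Ab1 and H2-Eb1 were at -1.13 and -0.96 in the Cy5 channel alone (0.0325 and 0.0288). Under median centring all 3 passed with the block (adjusted p = 0.0287, 0.0056 and 0.0055). H2-Eb2 went the other way by 0.57 (SE 0.86), with pairs at 1.48, 0.62 and -0.40.

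The invariant chain and the protease that removes it were the class II genes that fell with the block. Cd74 had 0.02, -0.30 and -0.02 in Lgr5-positive cells and 0.66, 0.60 and 1.53 in Lgr5-negative cells, without overlap and with Lgr5-negative replicate 3 highest. Its difference was -1.04 (SE 0.28), 2.05-fold lower (adjusted p = 0.256 and, with the block, 0.0222). Ctss, cathepsin S, which digests the invariant chain in endosomes, had -2.31, -2.45 and -1.97 against -1.29, -1.13 and -0.50. No arrays overlapped, and all 3 pairs moved by similar amounts (-1.02, -1.32 and -1.48). The difference was -1.27 (SE 0.26), 2.41-fold lower (adjusted p = 0.118 and, with the block, 0.0037).

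Of 4 tested genes for peptide exchange on class II molecules none passed either limma fit, with 0 at an unadjusted p under 0.05 with the group alone and 2 with the block. H2-DMa, a subunit of the exchange factor, differed by -0.27, and its partner H2-DMb1 by 0.37; H2-DMb2 was too dim to test (0.20). The inhibitory subunits H2-Oa and H2-Ob differed by -0.44 and -0.29. H2-Oa was dim, well above background on 1 Lgr5-positive and 2 Lgr5-negative arrays. A dimmer H2-Ob probe, not well above background on the 3 Lgr5-positive arrays, gave at least a 2.03-fold lower signal from the Cy5 channel normalized across arrays, a bound that holds for that normalization and is open to dye bias.

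Ciita, the transactivator of class II genes, had 3.31, -0.59 and 3.48 in Lgr5-positive cells and 3.09, -0.59 and 2.52 in Lgr5-negative cells. Replicate 2 was low in both fractions and the groups overlapped throughout. The difference was 0.40 (SE 1.35; adjusted p = 1 with the group alone and, with the block, 0.303), and its sign turned when Lgr5-negative replicate 2 or Lgr5-positive replicate 1 or 3 was left out. Marchf1 and Itgam, from the endosomal processing and macrophage lists described below, were low in replicate 2 of both fractions as well. In replicate 2 they had -0.69 and -0.83 in Lgr5-positive cells and -0.95 and -0.96 in Lgr5-negative cells. On the other arrays they had 2.03 to 3.35. The cause of this shared pattern was not tested. Rfx5, a subunit of the factor that binds the X box, was too dim to test (0.04). Outside both classes, Cd1d1 differed by 0.26 on the brighter probe and -0.03 on the other, and H2-Ke6 by 0.04; neither passed.

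**Figure D3:**
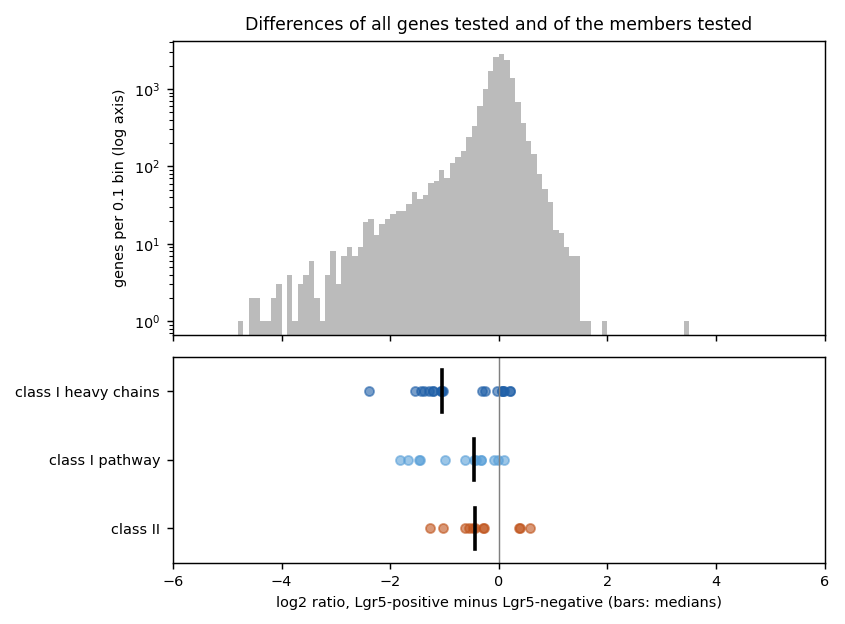
Top: number of genes per 0.1-wide bin of the difference in log2 ratio, on a log axis, for the 15675 genes tested; the median is 0.0099. Bottom: the tested class I heavy chains (n = 20), class I pathway genes (n = 13) and class II genes (n = 11) on the same horizontal axis, with medians of -1.04, -0.45 and -0.44 as bars; the heavy chains lie in a group at -1.03 or below and a group near 0.

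Pair 3 carried the largest difference for each of the 14 members that fell with the block. Class I heavy chains had medians of -0.62, -0.44 and -1.46 in pairs 1 to 3, class I pathway genes of -0.27, -0.37 and -1.05, and class II genes of -0.24, -0.25 and -0.72. Over all genes the medians were 0.04, -0.01 and -0.0019 and the standard deviations 0.46, 0.48 and 0.63, so pair 3 was also the most spread over the whole array. Of the 3420 genes on the whole array that were lower in all 3 pairs, 1943 fell most in pair 3 (12.4% of all genes tested). Of the 29 members lower in all 3 pairs, 27 did so. Lgr5-negative replicate 3 was the highest of its group in 9 of the 14 and Lgr5-positive replicate 3 the lowest of its group in 10. Members varied among replicates about as much as other genes, with a median SD of 0.30 in Lgr5-positive and 0.31 in Lgr5-negative cells against 0.27 and 0.30.

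Leaving out replicate 3 left 16 members lower and 1 higher with the block, and leaving out replicate 1 left 17 lower, whereas leaving out replicate 2 left 5 of the 14, H2-Q5, H2-M3, Psmb8, Psmb9 and Ctss. Across 10 sets of values, the reported set and those made by other choices of processing, 32 of the 46 members kept a lower value in Lgr5-positive cells in each set in which they were measured. H2-Eb2 and Ciita were higher in each set. The remaining 12, whose differences were at most 0.37 in size, changed sign in at least 1 set. Median centring, which moved the median of all genes to -0.29, turned H2-Q4, H2-DMb1, Cd1d1 and H2-Ke6 among others.

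Genes that raise or regulate MHC expression were read from lists. Over all genes tested, 7.72% were called with the block, 5.61% lower and 2.11% higher. Of 15 interferon signalling genes tested, 3 fell with the block and 0 rose (median -0.31). Irf8, a transcription factor of lymphoid and myeloid cells, differed by -2.74 (SE 0.44; adjusted p = 0.0585 with the group alone and 0.0056 with the block). Ifngr1, a subunit of the interferon-gamma receptor, differed by -1.07 (0.314 and 0.0167), and the kinase Jak1 by -1.01 (0.952 and 0.0182). The 8 factors that bind MHC promoters, among them Rfxap, Nfya and Rela, had a median of 0.07 and 0 calls in either limma fit (0 and, with the block, 1 at an unadjusted p under 0.05). Of 11 endosomal processing genes, Ctsh (-0.98, adjusted p = 0.0161 with the block) and Lgmn (-0.84, 0.0405), both lysosomal proteases, fell with the block (median -0.14).

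Costimulatory and checkpoint ligands were mostly too dim, with 3 of 6 tested. Cd274, which encodes PD-L1, fell with the block by 1.11 on the log2 scale (SE 0.48; adjusted p = 0.633 with the group alone and 0.0381 with the block), and its pairs were -0.42, -1.17 and -1.74. Of the stress ligands for the receptor NKG2D and the class I-like gene Mr1, 4 were tested, and Raet1e fell with the block by 1.30 (SE 0.28; 0.130 and 0.0137).

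Markers of some other cell types were also lower in Lgr5-positive cells. The counts for these and the lists that follow stand beside 5.61% of all genes lower with the block and 0.587% with the group alone. The 11 endothelial markers had a median of -2.15, and 8 fell with the block, 3 of them with the group alone (Egfl7, Plvap and Tie1). Only Kdr was higher, by 0.18. Over the 11 markers the mean log2 ratio was 1.23 to 2.27 on the Lgr5-positive arrays and 3.10 to 3.73 on the Lgr5-negative ones. By pair the endothelial median was -1.64, -1.40 and -2.97, so pair 3 was the largest there as well. This was not particular to endothelium. Pair 3 was also lowest for luminal markers (-0.41, -0.57 and -0.74) and interferon signalling genes (-0.14, -0.35 and -0.58), among other lists. It was not lowest for fibroblast (-0.78, -0.60 and -0.58) or pericyte markers (-0.61, -0.48 and -0.42). Tie1 was not well above background on the 3 Lgr5-positive arrays, so it passed the filter through the Lgr5-negative group alone and has only a bound, at least 3.34-fold lower in the Cy5 channel normalized across arrays; the other 7 that fell were above it on all 6. The part of these cells in the lower MHC signal was not tested.

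Luminal mammary markers had a median of -0.47, with 5 of 13 lower with the block (Cd14, Esr1, Foxa1, Kit and Ly6a), where 5.61% of all genes were. Their mean log2 ratios were 0.42 to 0.97 in Lgr5-positive and 0.91 to 1.48 in Lgr5-negative cells. Differences were negative for 10 of the 13 and positive for 3, Krt8 (0.08), Krt18 (0.03) and Epcam (0.31), without a call. Among fibroblast markers 3 of 6 fell with the block (Dcn, Lum and Pi16; median -0.59, means of -1.23 to -1.07 against -0.63 to -0.36), and among pericyte markers 2 of 4 (Notch3 and Rgs5; median -0.50, means of -0.31 to 0.11 against 0.24 to 0.58). Of the 9 basal markers, Krt17 rose with the block by 0.62 and none fell (median 0.34, means of 2.61 to 2.99 against 2.33 to 2.60). Their part was not tested either.

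Lists of leukocyte markers had medians between -0.23, for B cells, and 0.23, for T cells. Among them are the lists of B cells, dendritic cells and macrophages, of which class II molecules are typical. The 5 pan-leukocyte markers (Ptprc, Laptm5, Coro1a, Cd53 and Lcp1) had a median of -0.15 and 0 calls in either limma fit (0 and, with the block, 1 at an unadjusted p under 0.05), with mean log2 ratios of -1.49 to -1.26 in Lgr5-positive cells and -1.43 to -0.90 in Lgr5-negative cells. Of 4 B cell markers Cd79b fell with the block by 0.84 (median -0.23, means of -0.96 to -0.61 against -0.95 to -0.28). The 3 T cell markers had a median of 0.23 and no limma calls, nor an unadjusted p under 0.05 in either fit (means of -0.20 to 0.53 against -0.08 to -0.05). Of 6 macrophage and monocyte markers tested, 1, Mrc1, was lower with the block (adjusted p = 0.0205). Mrc1 was not well above background on the 3 Lgr5-positive arrays, so like Tie1 it passed the filter through the other group alone and has only a bound, at least 2.32-fold lower (list median 0.13, means of -0.98 to -0.16 against -0.95 to -0.17). Of 7 dendritic cell markers 4 were too dim to test, and the 3 tested had a median of -0.19 and likewise none (means of 0.35 to 0.76 against 0.62 to 1.00). The part of leukocytes in the MHC differences was not tested.

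**Figure D4:**
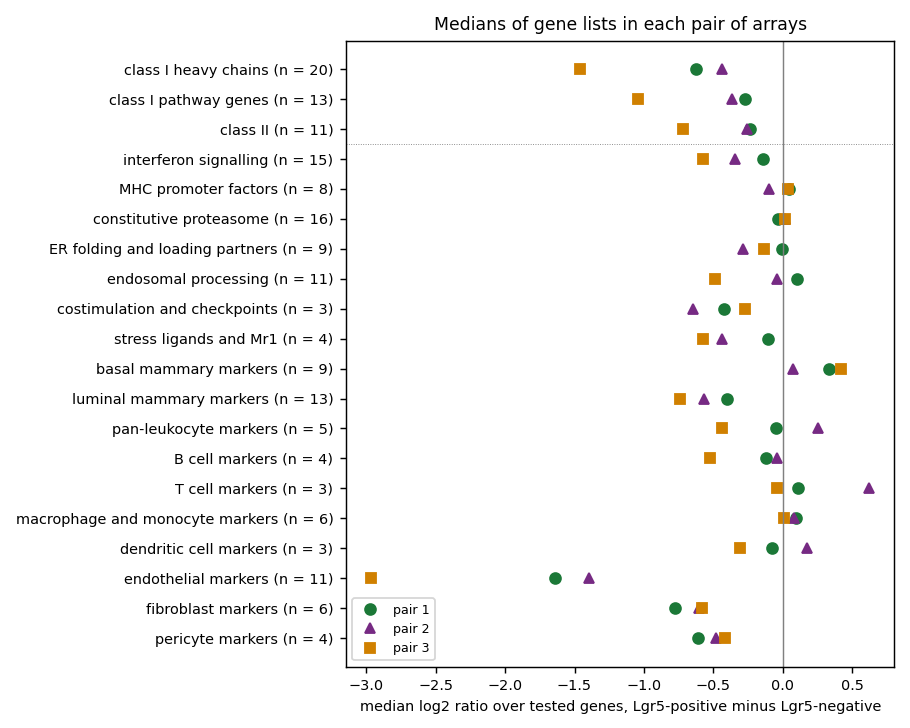
Median difference in log2 ratio over the tested genes of each list in each of the 3 pairs, with the number of genes tested after the name; the 3 upper rows are the antigen presentation members. The endothelial markers lie farthest left, at -1.64, -1.40 and -2.97. Both they and the 3 sets of members lie farthest left in pair 3, as do other lists such as luminal markers and interferon signalling genes. The constitutive proteasome and the MHC promoter factors stay near 0.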

How the data were processed

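RNA of 6 sorted samples was measured on Agilent 2-colour arrays. The authors deposited scanner output from Agilent Feature Extraction, version 11.0 in the submitters' processing notes and 11.0.1.1 per the file headers. Per the file headers these hold each spot's median intensity and local background intensity in both channels, a processed intensity, and the log10 of the processed Cy5 to Cy3 ratio. The deposited value table of the series holds log2 ratios, centred on each probe's median, as its values show. What else was done to that table is not given in the sources used here.

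Median signals were corrected with limma 3.58.1 (R 4.3.3) by normexp with offset 50, then normalized per array by loess, with control spots and flagged outliers at weight 0. Spots of a probe were averaged, giving 55681 probes, of which 27509 were named through RefSeq transcripts with a table of build GRCm38.p6; the arrays are annotated on mm9, so that table gave names alone, and the coordinates printed are those of RefSeq promoter windows of build GRCm38.p6. Probes had to be well above background in Cy5 on at least 3 of 6 arrays, and the brightest probe stood for a gene. The precision is limited by the number of arrays, 3 per group.

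Groups were compared with lmFit and eBayes, two-sided, with p-values adjusted by Benjamini-Hochberg over 15675 genes and a threshold of 0.05, with the group alone and also with the replicate number as a block. Replicate numbers pair the arrays: same-numbered arrays correlated at 0.810, 0.819 and 0.675 in their deviations from the group means, above the 0.1 required in each pair, and the labels do not state what a number shares. The fits were tested on simulated data. With 3 against 3, an exact test of a single value cannot go below p = 0.1.

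Members and lists were chosen with earlier results of these data known. Values in every sample are given for 12 members named by the rule and for the 8 others past the threshold in either fit; the rest are given by difference, range or count. Array values of H2-Q4, H2-Q2, H2-Q8, H2-T23 and H2-M11 were added after they had been seen. Alternatives were other background corrections, normalizations, filters, probe rules, spread models and sources of values, and leaving out each array or pair. Promoter windows cover up to 250 bases upstream of RefSeq starts; 13 members had no entry. Protein and probe sequences were not used here.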

Additional observations from a re-analysis of the deposited data

How the results depend on the processing

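The count of genes past the threshold with the group alone, 96, was 44 when all 6 arrays had to be above background, 312 with array weights, 9 with median centring, 2 with scaling between arrays, 1210 with the replicate block, and 0 to 371 without single arrays (0 without Lgr5-positive replicate 1 or 3, 371 without Lgr5-negative replicate 1). The count of members, 1, was 4 with array weights, 14 with the replicate block, 0 with the deposited value table, scanner ratios, median centring or scaling between arrays, and 0 to 2 without single arrays (0 without Lgr5-negative replicate 2 or 3 or Lgr5-positive replicate 1 or 3). The class I median of -0.62 was -1.03 with all 6 arrays above background, which tests fewer dim genes, and -1.13 with median centring, under which the median of all genes was -0.29; without single arrays it was -0.82 to -0.48. The class II median of -0.44 ranged from -0.52 to -0.23 over all settings, single arrays left out included, and was lowest in size without Lgr5-negative replicate 3. The 14 members called with the replicate block became 8 with the deposited value table, 31 with median centring, 7 with scaling between arrays, 7 with scanner ratios, and 5 to 17 without single pairs (5 without replicate 2). These settings were combined with the block after the data had been seen. Of the 14, 6 (H2-Q5, H2-M3, Psmb8, Psmb9, Nlrc5 and Ctss) passed in all 11 settings that keep all arrays. Ciita reversed without single arrays, over a range of -0.73 to 1.72. The call of H2-Q5 with the group alone had an adjusted p of 0.0627 with the deposited value table, 0.0631 with scanner ratios, 0.0682 with median centring and 0.144 with scaling between arrays. The cause of these changes was not tested. Dim signal limits what can be said of Tap1, Rfx5, H2-DMb2 and the 4 untested heavy chains. The same holds for Erap1, H2-Oa and dim heavy chains near 0 such as H2-Q1 and H2-T24.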
